A study of Rattus norvegicus with 8 samples.

Results

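The cyclin-dependent kinase inhibitor genes are the 7 genes Cdkn1a, Cdkn1b, Cdkn1c, Cdkn2a, Cdkn2b, Cdkn2c and Cdkn3, taken from a list of names, of 14506 genes with a probe set on these arrays. Each was represented by the brightest probe set, by mean over the 8 arrays, that the platform annotation pairs with that gene alone, and each had 1 such probe set. The arrays measured RNA of primary ventricular cardiomyocytes of newborn rats, muscle cells that are taken from the heart and kept in short culture. The cells of 4 arrays had received a miR-222 precursor at 0.4 µM by transfection, a synthetic RNA that the cell processes to the mature microRNA, and those of the other 4 a scrambled control precursor at 0.4 µM. Both groups were grown in 6 cm dishes, received the same lipid reagent and were harvested after 48 h. The rat strain is not given in the labels, and nothing there says that the arrays of a group came from separate cultures. The p-values therefore measure only how the samples spread, which can be technical. The scrambled RNA has a sequence of its own, and each fold change holds what both RNAs did.

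Cyclin-dependent kinases drive a cell from one phase of division to the next once a cyclin has bound them, and the inhibitor proteins hold them back. The Cip/Kip proteins p21, p27 and p57, encoded by Cdkn1a, Cdkn1b and Cdkn1c, bind complexes of cyclins with kinases, in particular those that open S phase. The INK4 proteins p16, p15 and p18, encoded by Cdkn2a, Cdkn2b and Cdkn2c, bind Cdk4 and Cdk6 and keep them from D cyclins. Cdkn3 encodes a phosphatase that removes the activating phosphate of Cdk2 and Cdk1, and its transcript is made mainly by dividing cells. Heart muscle cells leave the cell cycle soon after birth, and p21, p27 and p57 are among the proteins known to rise or persist as they do so. In other cell types Cdkn1b is a known target of the miR-221 family.

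The mature microRNAs are shown because the precursor supplies the first of them, and because the shared seed, in capitals at bases 2 to 8, makes them 1 family. The sequences are those of RefSeq on build GRCr8, chrX:6022682-6022702 and chrX:6023246-6023268, both on the plus strand.
rno-miR-222-3p: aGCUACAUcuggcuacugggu
rno-miR-221-3p: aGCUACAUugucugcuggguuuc
No other of the 724 mature rat microRNAs in that table has the seed of these 2.

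Of the 7 inhibitor genes, 3 were higher with the miR-222 precursor (Cdkn1a, Cdkn1c and Cdkn3), 2 were lower (Cdkn1b and Cdkn2b) and 2 did not pass the test (Cdkn2a and Cdkn2c), at an adjusted p under 0.05 in limma, adjusted over all probe sets. Over all genes 24.7% passed, 11.7% higher and 13.0% lower, so a gene past the threshold is common in this comparison. The groups of 4 arrays did not overlap in the same 5 of the 7 genes, with miR-222 above in 3 and below in 2. They did not overlap in 33.3% of all genes, with miR-222 above in 16.4% and below in 17.0%. The median log2 fold change of the 7 genes was 0.15, against 0.01 over all genes. The p27 and p21 genes, which belong to 1 family, went in opposite directions.

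**Figure D1:**
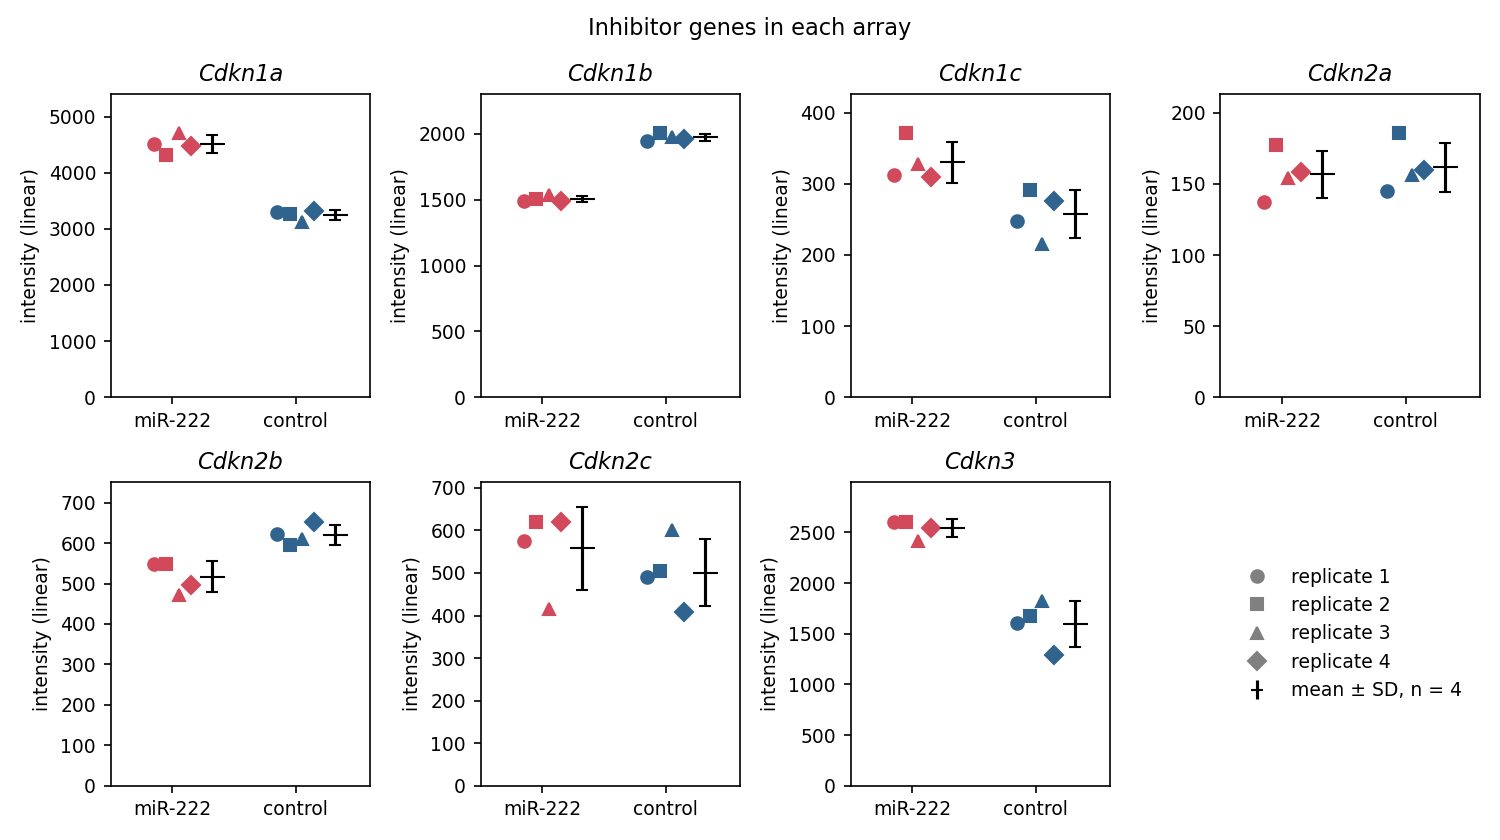
Intensity (linear scale, from 0) of the 7 inhibitor genes in each array, miR-222 left and control right, with a symbol for each replicate and the mean ± SD of 4 arrays in black. The groups do not overlap for Cdkn1a, Cdkn1b, Cdkn1c, Cdkn2b and Cdkn3, and they overlap for Cdkn2a and Cdkn2c.

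Intensities across the table ran from 0.8 to 16339, with array medians of 202 to 219. Arrays correlated at 0.989 to 0.993 within groups and at 0.983 to 0.989 between groups over all probe sets on the log2 scale. All 10 cardiomyocyte markers examined, among them Myh6, Tnnt2 and Actc1, stood at 3258 or above in every array. Of these 1 was higher and 3 were lower with miR-222, and their summed intensity was 85527 to 87323 in miR-222 arrays, against 92638 to 94370 in control arrays. Beside this and the marker counts that follow, 11.7% of all genes were higher and 13.0% lower. Of 11 fibroblast and matrix markers 5 were lower with miR-222, and their summed intensity was 10673 to 12113 in miR-222 arrays, against 13364 to 14651 in control arrays. Of 5 smooth muscle markers 1 was lower (summed intensity 12161 to 14734 in miR-222 arrays, against 15578 to 15982 in control arrays). Of 5 endothelial markers 1, Kdr, was lower (summed intensity 909.8 to 1004 in miR-222 arrays, against 1457 to 1585 in control arrays). Kdr alone averaged 295 with miR-222 and 837 with control. The log2 fold changes of Pecam1, Cdh5, Tek and Tie1 were 0.04, -0.13, -0.02 and 0.04, and none of these passed. None of 6 macrophage and leukocyte markers passed in limma (806 to 921 in miR-222 arrays, against 806 to 863 in control arrays), though 1, Ptprc, was lower at an unadjusted p under 0.05. Neither of the 2 measured erythroid markers passed, at the adjusted or the unadjusted threshold (538 to 712 in miR-222 arrays, against 510.2 to 664 in control arrays), and no marker of any list was at 0. In a dish with several cell types, fewer cells of a type and less RNA per cell cannot be told apart, and the part of these markers in the results on inhibitor genes was not tested.

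Cdkn1b, which encodes p27 and was measured by probe set 10859254, was lower with miR-222. Its intensity was 1489, 1505, 1533 and 1489.6 in the miR-222 arrays, against 1948, 2006, 1975 and 1964 in the control arrays. The highest miR-222 array, at 1533, thus stood well below the lowest control array, at 1948. The mean was 1504 ± 20.6 with miR-222 and 1973 ± 24.5 with control (SD, n = 4 each), and the level with miR-222 fell by 23.8% of that of control. The log2 fold change was -0.39 (SE 0.035, 95% confidence interval -0.47 to -0.31, limma adjusted p = 2.69e-04). Cdkn1b was among the steadiest transcripts of the table, since its SD within groups, 0.019 on the log2 scale, was smaller than that of all but 0.641% of genes. By size of change it stood lower, as 90.6% of genes changed by less.

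Cdkn1a, the p21 gene, was higher with miR-222 (probe set 10828827). Its intensity was 4514, 4316, 4706 and 4483 in the miR-222 arrays, against 3298, 3263, 3116 and 3316 in the control arrays. It was the brightest of the 7 probe sets, which says nothing of transcript numbers, since probe sets differ in how well they bind. The mean was 4505 ± 160.2 with miR-222 and 3248 ± 90.8 with control (SD, n = 4 each), which is 1.39-fold higher. The log2 fold change was 0.47 (SE 0.044, interval 0.37 to 0.57, limma adjusted p = 3.17e-04), and 93.7% of genes changed by less.

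Cdkn1c, the p57 gene, is expressed mainly from the maternal chromosome in mammals. Its intensity (probe set 10727056) was 312, 371, 328 and 309.5 in the miR-222 arrays, against 247, 291, 216 and 276 in the control arrays. The groups came close to each other, with the lowest miR-222 array at 309.5 and the highest control array at 291. The mean was 330.2 ± 28.6 with miR-222 and 257 ± 33.2 with control (SD, n = 4 each), at a log2 fold change of 0.36 (SE 0.10, interval 0.13 to 0.60, limma adjusted p = 0.0430). The spread within groups was 0.16 on the log2 scale, larger than in 78.8% of genes. The call was lost without any single array except control replicate 2 (adjusted p of 0.0563 to 0.104).

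The changes of the 3 Cip/Kip genes were set against each other within arrays, which cancels any scaling of an array. The log2 value of Cdkn1a minus that of Cdkn1b was 1.52 to 1.62 in the miR-222 arrays, against 0.66 to 0.76 in the control arrays, a difference between their changes of 0.86. For Cdkn1c minus Cdkn1b the difference was 0.76, with -2.27 to -2.02 in miR-222 arrays and -3.20 to -2.79 in control arrays. Each of the 2 differences had a 2-sided exact permutation p = 0.0286, the smallest that 4 against 4 arrays allow. After adjustment over the 3 pairs it was 0.0429. Such a p was fixed by the gene values above, as the groups did not overlap and Cdkn1b went the other way. It adds nothing to the limma calls of the 3 genes. For Cdkn1a minus Cdkn1c the difference was 0.11 and the exact permutation p = 0.314, also after adjustment, with overlapping ranges of 3.54 to 3.86 in miR-222 arrays and 3.49 to 3.85 in control arrays. This does not show that p21 and p57 transcripts changed alike, only that 4 arrays a group did not separate them.

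Cdkn2b, which encodes p15, an inhibitor known to be induced by TGF-beta in epithelial cells, was the INK4 gene that fell. Its intensity (probe set 10878001) was 549, 549, 473 and 496 in the miR-222 arrays, against 624, 595, 611 and 653 in the control arrays. The groups did not overlap. The mean was 517 ± 38.5 with miR-222 and 621 ± 24.6 with control (SD, n = 4 each), at a log2 fold change of -0.27 (SE 0.062, interval -0.41 to -0.12, limma adjusted p = 0.0200). Without control replicate 1, control replicate 4 or miR-222 replicate 4 it missed the threshold (adjusted p of 0.0547 to 0.0560). Summed intensities of the cardiomyocyte, fibroblast, smooth muscle and endothelial markers given above were also lower with miR-222. In that order 6 of 10, 6 of 11, 4 of 5 and 4 of 5 of the markers did not pass. Single genes weighed much in the sums. Beside Kdr, mean intensity was 6046 with miR-222 and 9196 with control for Myh7, 2204 and 3376 for Fn1, and 1335 and 2498 for Tagln. Any relation of these markers to Cdkn2b was not tested.

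Cdkn2a lies close to Cdkn2b, with 1 other protein-coding gene between them in RefSeq, and encodes p16 and, from another start, the ARF protein. Which of these transcripts the probe set reads was not examined here. Its intensity (probe set 10877997) was 137, 177, 154 and 158 in the miR-222 arrays, against 145, 186, 156 and 159.6 in the control arrays, so the groups overlapped. All 8 values lay below the median of their array, and the table gives no detection calls. The log2 fold change was -0.05 (SE 0.098, limma adjusted p = 0.809), with a 95% interval of -0.27 to 0.18. Whether Cdkn2a and Cdkn2b differed in their change was not tested.

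Cdkn2c, which encodes p18, had intensities of 576, 621, 416 and 619 in the miR-222 arrays, against 490.0, 504, 600.3 and 408.5 in the control arrays (probe set 10878705). Each group held 1 low array, miR-222 replicate 3 at 416 and control replicate 4 at 408.5, and the groups overlapped. Its SD within groups, 0.25 on the log2 scale, was larger than that of 94.9% of genes. The log2 fold change was 0.15 (SE 0.16, interval -0.21 to 0.51, limma adjusted p = 0.581).

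Cdkn3, the phosphatase gene, had the largest change of the 7, higher with miR-222. Its intensity (probe set 10779638) was 2607, 2607, 2414 and 2549 in the miR-222 arrays, against 1607, 1678, 1825 and 1286 in the control arrays. Every miR-222 array was above every control array, with 2414 as the lowest miR-222 value and 1825 as the highest control value. The mean was 2544 ± 91.3 with miR-222 and 1599 ± 227.5 with control (SD, n = 4 each), which is 60.4% higher. The log2 fold change was 0.68 (SE 0.10, interval 0.45 to 0.91, limma adjusted p = 0.00265), and 97.5% of genes changed by less.

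The plot of log2 levels array by array places Cdkn3 and Cdkn2c beside genes of dividing cells. Within the control group the 3 measures had the same order of arrays. On the log2 scale, relative to the mean of the control arrays, control replicate 4 was lowest at -0.30 for Cdkn3, -0.28 for Cdkn2c and -0.21 for the mean of 17 genes of G2 and mitosis. Control replicate 3 was highest at 0.20, 0.27 and 0.20 in the same order of measures. In miR-222 replicate 3 the mitosis mean was -0.25, while miR-222 replicates 1, 2 and 4 ran from 0.25 to 0.30. Cdkn2c was at -0.25 in that array and at 0.21 to 0.32 in those 3. Cdkn3 was at 0.61 in that array, against 0.68 to 0.72 in the other 3. Cdk1, the kinase of mitosis and a substrate of the Cdkn3 phosphatase, was at -0.52, against 0.14 to 0.35.

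**Figure D2:**
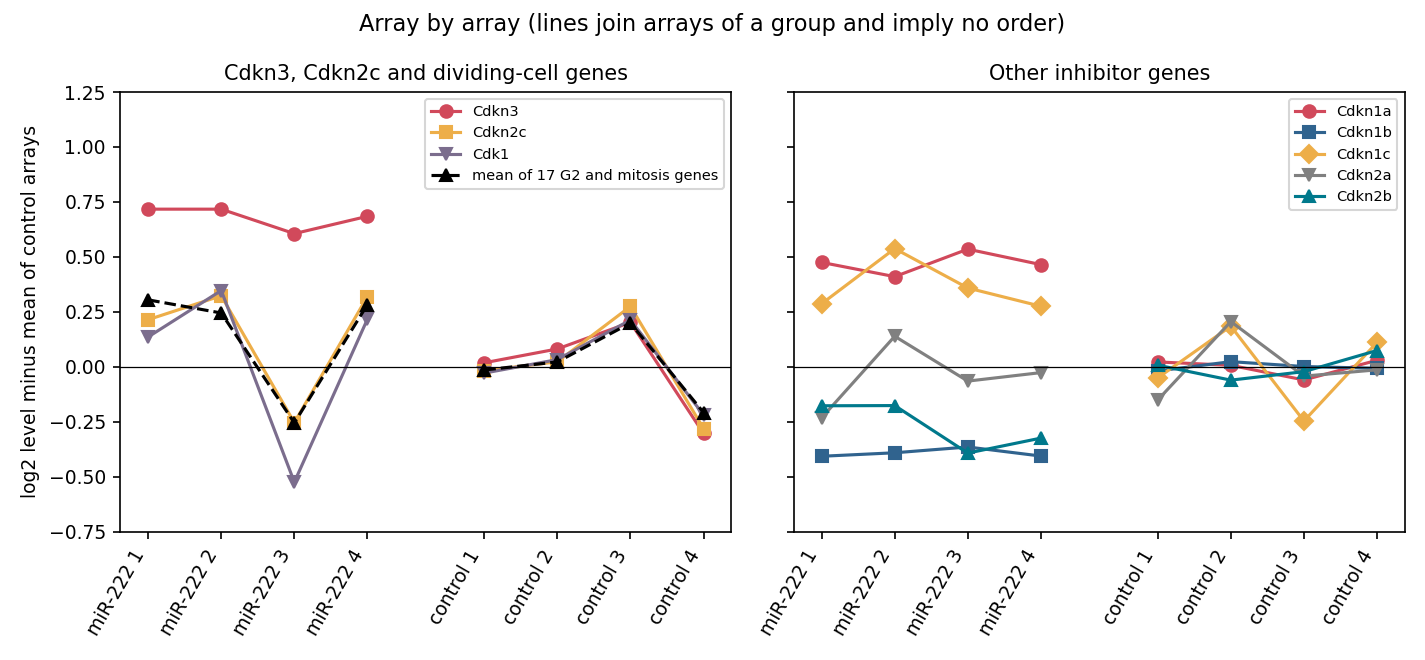
Log2 level minus the mean of the 4 control arrays (vertical axis) in each array, miR-222 left and control right, for Cdkn3, Cdkn2c, Cdk1 and the mean of 17 G2 and mitosis genes (left) and for the other 5 inhibitor genes (right). In miR-222 replicate 3 Cdkn2c and the mitosis mean are both at -0.25 while Cdkn3 is at 0.61, and Cdkn1b stays between -0.41 and -0.36 in all miR-222 arrays.

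In the list of G2 and mitosis, 17 genes were measured. There 3 were higher, 0 were lower and 14 did not pass in limma, beside 11.7% of all genes higher and 13.0% lower, and at an unadjusted p under 0.05 the counts were 5 higher and 0 lower. The list's median log2 fold change was 0.06. Pttg1, the securin gene, was higher by 0.69 (SE 0.12, limma adjusted p = 0.00527), close in size to Cdkn3, and so were the cytokinesis gene Ect2 by 0.49 (SE 0.10, adjusted p = 0.0134) and the mitotic cyclin gene Ccnb2 by 0.53 (SE 0.12, adjusted p = 0.0184). The mitotic kinesin gene Kif20a measured 0.39 (SE 0.15, adjusted p = 0.108). Without miR-222 replicate 3 the count was 5 higher and Kif20a passed (adjusted p = 0.0386), as Kif20a did with array weights (adjusted p = 0.0462), whereas Ccnb2 missed the threshold without either miR-222 replicate 1 or miR-222 replicate 4 (adjusted p of 0.0519 and 0.0502). Cdkn3 passed without any single array, at log2 fold changes of 0.58 (without control replicate 4) to 0.75 (without control replicate 3).

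The promoter of Cdkn3 is shown because many genes of G2 and mitosis share promoter elements, the cell cycle homology region and CCAAT boxes, that give them late expression in the cycle. It is the RefSeq window of build GRCr8 of 300 bases around the start of the gene, chr15:22502136-22502435 on the plus strand, and capitals mark TTTGAA and CCAAT on either strand.
Cdkn3: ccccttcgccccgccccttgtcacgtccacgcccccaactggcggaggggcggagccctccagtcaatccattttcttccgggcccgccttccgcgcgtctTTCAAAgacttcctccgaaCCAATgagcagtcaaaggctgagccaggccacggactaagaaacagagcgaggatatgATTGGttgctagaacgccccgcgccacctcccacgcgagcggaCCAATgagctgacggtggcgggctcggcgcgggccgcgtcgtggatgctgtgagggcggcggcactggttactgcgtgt
It holds 1 TTTGAA, on the minus strand, and 3 CCAAT, of which 1 is on the minus strand, with no overlap between them. Of the 33469 promoter windows of the same length 18.3% hold TTTGAA, 37.5% hold at least 1 CCAAT and 3.02% hold at least 3. Of 18 genes of the mitosis list with a window 13 hold TTTGAA and 15 hold CCAAT, among them Pttg1, Ccnb2 and Ect2 for both. Of the other inhibitor genes with a window, Cdkn2b holds 1 TTTGAA and Cdkn1b holds 2 CCAAT. The Cdkn1a, Cdkn2a and Cdkn2c windows hold neither motif. Such matches describe the letters of the window and do not show that a factor bound there.

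The kinases and cyclins that the inhibitors act on were examined next. Of 11 genes 4 were lower, 0 were higher and 7 did not pass in limma, where 13.0% of all genes were lower and 11.7% higher, with a median log2 fold change of -0.05, and at an unadjusted p under 0.05 the counts were 5 lower and 0 higher. Ccnd1, the cyclin D1 gene, was at 1165 to 1235 in miR-222 arrays and at 2415 to 2636 in control arrays, a log2 fold change of -1.08 (SE 0.045, adjusted p = 1.83e-05). Cdk6, the kinase that D cyclins and INK4 proteins compete for, changed by -0.92 (SE 0.071, adjusted p = 1.48e-04), Ccne2, a cyclin E gene, by -1.18 (SE 0.16, adjusted p = 0.00159), and Cdk2, the main target of p21 and p27, by -0.35 (SE 0.052, adjusted p = 0.00280). The change of Cdk2 was thus close in size to that of Cdkn1b, though a test of that difference was not run. Cdk1 measured 0.04 (SE 0.19, adjusted p = 0.911), and its mate Ccnb1 0.31 (SE 0.19, adjusted p = 0.313).

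**Figure D3:**
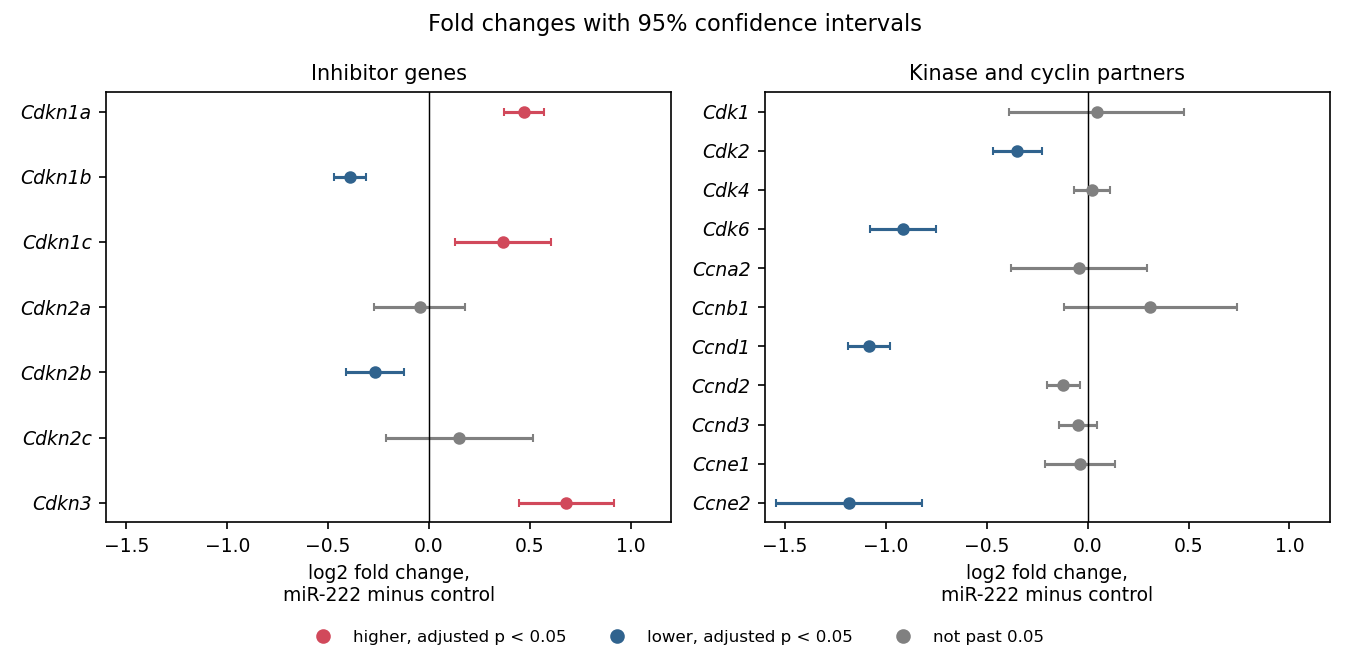
Log2 fold change, miR-222 minus control, with its 95% confidence interval, for the 7 inhibitor genes (left) and for 11 genes of their kinase and cyclin partners (right), n = 4 arrays a group. Red and blue mark genes higher or lower at a limma adjusted p under 0.05 and grey the others. The inhibitors lie on both sides of 0, and the 4 partners that passed, Cdk2, Cdk6, Ccnd1 and Ccne2, lie below it.

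Downstream of the kinases lie the pocket proteins, which the kinases inactivate, and the E2F factors that these hold. Of 8 measured genes 1 was higher, 1 was lower and 6 did not pass (median -0.01), a share past the threshold close to the 24.7% of all genes. The retinoblastoma gene Rb1 measured 0.26 (SE 0.069, adjusted p = 0.0329) and the repressor E2F gene E2f8 -0.34 (SE 0.10, adjusted p = 0.0493). The E2F1 gene E2f1 measured -0.27 (adjusted p = 0.0527) and E2f5 0.30 (adjusted p = 0.0666), and neither passed in the fit reported here. E2f1 passed as lower in 6 of the 7 alternatives that kept all arrays (adjusted p of 0.0231 to 0.0458), and E2f5 as higher in 4 of them and without miR-222 replicate 3 (adjusted p of 0.00525 to 0.0421). The call of E2f8 was lost without any single array (adjusted p of 0.0538 to 0.111), and that of Rb1 without any except control replicate 4 or miR-222 replicate 2, and with array medians centred (adjusted p of 0.0625 to 0.0904).

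p27 and p21 are controlled to a large extent by destruction of the protein, which arrays do not measure, so the genes of that machinery were examined. Of 11 measured genes 1 was higher, 4 were lower and 6 did not pass (median -0.08), where 11.7% of all genes were higher and 13.0% lower. Skp2, the F-box protein that marks p27 for destruction, was at 251 to 279 in miR-222 arrays and at 334 to 387 in control arrays. Its log2 fold change was -0.41 (SE 0.064, limma adjusted p = 0.00323), next to -0.39 for Cdkn1b itself. Cul4b, a scaffold of the ligases that act on p21, was higher by 0.43 (SE 0.047, adjusted p = 6.86e-04). The remaining 3 that passed were lower: Pcna, the replication clamp on which p21 is presented to its ligase, at -0.42 (SE 0.11), Ubac1, a subunit of the Kip1 ubiquitination complex, at -0.24 (SE 0.065), and Rbx1, the RING subunit of cullin ligases, at -0.16 (SE 0.040). The count of 4 lower genes rested on these weaker calls and was 1 or 2 without any single array except miR-222 replicate 4 (4 lower). That of Rbx1 was lost without any array but miR-222 replicate 4, that of Ubac1 without any but miR-222 replicate 3 or 4, and that of Pcna without any but control 2 or miR-222 4 (adjusted p of 0.0502 to 0.0916), while Skp2 and Cul4b passed without any single array.

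Cdkn1a is the classical target of the transcription factor p53, and most of the other p53 target genes examined were higher as well. Of 10 measured genes 7 were higher, 1 was lower and 2 did not pass, with a median log2 fold change of 0.26, against 11.7% of all genes higher and a median of 0.01. Sesn1, a sestrin gene, was higher by 0.54 (SE 0.064, limma adjusted p = 8.88e-04), Zmat3 by 0.36 (SE 0.045, adjusted p = 0.00107) and Phlda3, a repressor of Akt, by 0.31 (SE 0.037, adjusted p = 8.73e-04). Gadd45a, a stress gene whose protein binds p21, was the one that fell, by 0.44 (SE 0.042, adjusted p = 3.77e-04). Mdm2, whose protein destroys p53, Fas, Tp53inp1 and Ccng1 were also higher, at 0.33, 0.54, 0.21 and 0.18, and are named after their values were seen. The 2 that did not pass were Bax at 0.12 (adjusted p = 0.425) and Bbc3 at 0.04 (adjusted p = 0.703). The call of Ccng1 was lost with array medians centred (adjusted p = 0.0849). The counts of 7 higher and 1 lower were the same without any single array. The p53 gene itself was not analysed here, and the arrays do not measure p53 protein.

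The upstream promoter of Cdkn1a is shown because it holds a match to the p53 response element, 2 adjacent copies of the p53 decamer consensus with at most 1 mismatch. Capitals mark it in the RefSeq window of build GRCr8, chr20:7150682-7150981 on the plus strand.
Cdkn1a: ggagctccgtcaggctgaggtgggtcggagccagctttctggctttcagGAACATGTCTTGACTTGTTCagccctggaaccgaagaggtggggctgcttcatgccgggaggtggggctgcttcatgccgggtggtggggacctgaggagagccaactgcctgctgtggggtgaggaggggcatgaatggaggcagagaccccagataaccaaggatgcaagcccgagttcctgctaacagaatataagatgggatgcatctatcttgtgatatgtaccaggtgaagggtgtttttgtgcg
The match begins 201 bases before the start on which this window is placed, and other starts of Cdkn1a were not examined. Of 33469 windows 24 hold such a match (0.0717%), and of 8 other p53 target genes with a window 1 does, Ccng1. The window of no other inhibitor gene holds one among the 6 genes with a window, and Cdkn1c was named only.

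Of 13 measured genes of factors that switch inhibitor genes on or off 1 was higher, 3 were lower and 9 did not pass (median 0.06), a share past the threshold not far from the 24.7% of all genes. Foxo1, a FoxO factor that raises transcription of Cdkn1a and Cdkn1b when Akt is quiet, was at 968, 1048, 1327 and 979 in miR-222 arrays, against 595, 526, 552 and 541 in control arrays. That is a log2 fold change of 0.95 (SE 0.10, limma adjusted p = 5.78e-04), or 1.94-fold. Foxo1 was higher while Cdkn1b was lower and Cdkn1a higher. Myc, a repressor of Cdkn1a and Cdkn2b through Miz-1, changed by -0.54 (SE 0.090, adjusted p = 0.00446), Klf6, an activator of Cdkn1a, by -0.61 (SE 0.10, adjusted p = 0.00437), and Klf4, another activator of Cdkn1a, by -0.17 (SE 0.040, adjusted p = 0.0195). The call of Klf4 was lost in 4 of 8 fits with an array left out, those without control replicate 1, 2 or 3 and without miR-222 replicate 1 (adjusted p of 0.0530 to 0.0562).

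**Figure D4:**
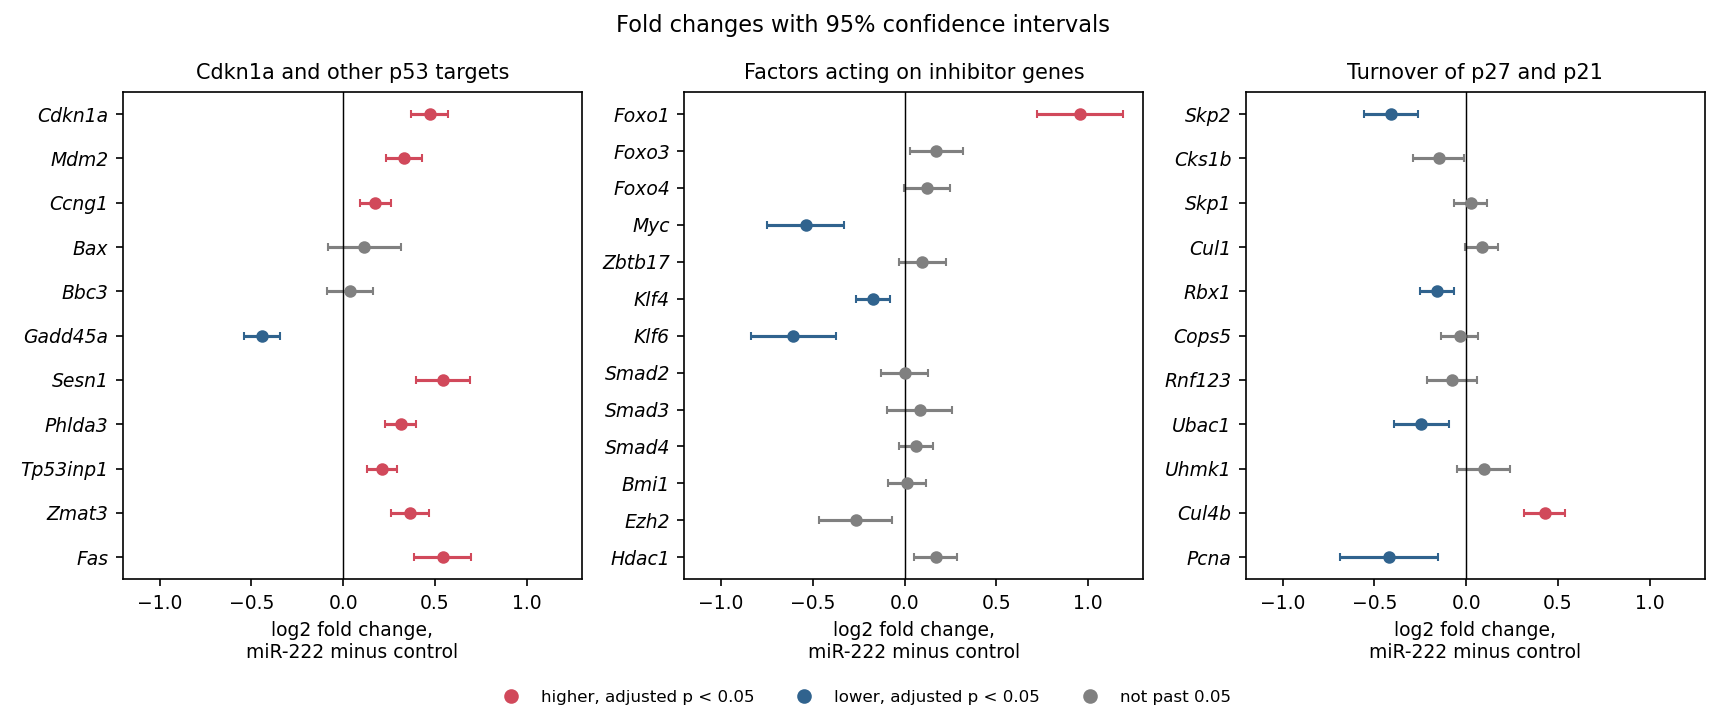
Log2 fold change, miR-222 minus control, with its 95% confidence interval, for Cdkn1a and 10 other p53 target genes (left), 13 factors that act on inhibitor genes (middle) and 11 genes of p27 and p21 turnover (right), n = 4 arrays a group. Red and blue mark genes higher or lower at a limma adjusted p under 0.05 and grey the others. Cdkn1a and 7 of the 10 other p53 targets are red, Foxo1 lies highest at 0.95, and Skp2 lies at -0.41 on the other side of Cul4b at 0.43.

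The Cdkn1b promoter is shown beside these factors, since binding of NF-Y to CCAAT is known for the human gene. Capitals mark CCAAT on either strand in the RefSeq window of build GRCr8, chr4:169491254-169491553 on the plus strand.
Cdkn1b: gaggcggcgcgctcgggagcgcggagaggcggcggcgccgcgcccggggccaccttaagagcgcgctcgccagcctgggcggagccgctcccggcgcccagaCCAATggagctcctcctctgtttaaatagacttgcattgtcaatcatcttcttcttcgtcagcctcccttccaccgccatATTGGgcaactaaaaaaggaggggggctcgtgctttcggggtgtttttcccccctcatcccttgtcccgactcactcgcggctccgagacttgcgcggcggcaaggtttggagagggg
It holds 2 CCAAT, of which 1 is on the minus strand, and 11.2% of all windows hold at least 2. The FoxO motif TGTTTAC is in none of the 6 windows of inhibitor genes and in 3.78% of all windows, and no match in 300 bases says nothing of the factor's action on the gene.

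Further proteins that bind and restrain kinases or cyclins were also examined. None of 7 measured genes passed in limma, beside 24.7% of all genes, at a median of 0.05. At an unadjusted p under 0.05 the counts were 1 higher and 1 lower. The Cdk2-associated protein gene Cdk2ap1 measured 0.10 (SE 0.039, adjusted p = 0.118), Cables1 0.18, and the inhibitory kinase genes Pkmyt1 and Wee1 -0.18 and -0.11. Cdk2ap1 passed as higher with the filter on dim probe sets (adjusted p = 0.0470) and with trended robust moderation (adjusted p = 0.00853). Cdkn2d, the remaining INK4 gene, was not analysed here.

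Genes near the inhibitors on the chromosome were set against them. In RefSeq 9 protein-coding genes lie between Cdkn1c and Igf2, 6 between Cdkn2a and Elavl2 and 13 between Cdkn2a and Klhl9. Of 9 imprinted and other genes near Cdkn1c 3 were lower, 0 were higher and 6 did not pass in limma, beside 13.0% of all genes lower and 11.7% higher, with a median of -0.16, and at an unadjusted p under 0.05 the counts were 4 lower and 1 higher. Kcnq1, the potassium channel gene next to Cdkn1c with no protein-coding gene between them in RefSeq, changed by -0.40 (SE 0.063, adjusted p = 0.00334), while Cdkn1c measured 0.36. Nap1l4, a histone chaperone gene, changed by -0.29 (SE 0.049, adjusted p = 0.00458) and the growth factor gene Igf2 by -0.22 (SE 0.062, adjusted p = 0.0394). Phlda2 measured 0.14 (adjusted p = 0.0731) and passed as higher in 3 of the 7 alternatives that kept all arrays (adjusted p of 0.0285 to 0.0419). The call of Igf2 was lost in 6 of 8 fits with an array left out, all but those without control replicate 1 and miR-222 replicate 3 (adjusted p of 0.0660 to 0.0951). Around Cdkn2a and Cdkn2b none of 4 genes passed in limma (median 0.01), beside 24.7% of all genes. At an unadjusted p under 0.05 the counts were 1 lower and 0 higher. Mtap, the neighbour of Cdkn2a, measured -0.17 (adjusted p = 0.0754) and passed as lower in 4 alternatives, 2 of them with all arrays kept (adjusted p of 0.0332 to 0.0495). Klhl9, Elavl2 and Dmrta1 measured 0.08, -0.07 and 0.09.

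The genes most like each inhibitor that passed were found by the root mean square difference of log2 levels, centred on the control mean, over the 8 arrays. Genes whose symbol begins with LOC or RGD were left out of this ranking. Cdkn1b was closest to Rbm24, an RNA-binding protein gene of muscle, at 0.015 log2 units, and then to the kinase gene Araf at 0.022 and to Them4 at 0.024. Cdkn1a was closest to Ankh, a pyrophosphate transporter gene, at 0.020, to the histone variant gene Macroh2a1 at 0.021 and to Cyb5r4 at 0.031. Cdkn3 was closest to Trim59 at 0.058, followed by the sterol transporter gene Abcg1 at 0.073 and Rhobtb3 at 0.079. Cdkn2b was closest to Lmbrd2 at 0.031, to Taf1d at 0.033 and to Zdhhc13, also at 0.033. Cdkn1c was closest to Peli2 at 0.052, to Neurod4 at 0.062 and to RT1-S2 at 0.074, the last of which did not pass the test except in 3 alternatives (adjusted p of 0.0390 to 0.0455). The calls of Peli2, Neurod4, Lmbrd2 and Zdhhc13 were each lost without 1 or more single arrays (adjusted p of up to 0.0988). With 2 groups of 4 arrays such likeness says only that the fold change and the spread over arrays were alike.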

How the data were processed

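The authors' deposited table held linear intensity values for 29170 probe sets in 8 arrays, which they had processed by a method not given in the sources used here. The array medians were close to each other, so no further normalization was applied. The series text names another rat array than the annotation that pairs with the identifiers, and gene names come from the latter: 15310 probe sets had 1 gene, 323 had several and 13537 had none. No scanner files or detection calls were used here. Arrays of a group are numbered in listing order.

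Values were taken as log2 without a pseudocount and compared with limma 3.58.1 (lmFit and eBayes, R 4.3.3), 2-sided, with Benjamini-Hochberg adjustment over all probe sets and a threshold of 0.05. Intervals of 95% use the moderated degrees of freedom. The fit was tested on simulated data. Differences between the changes of 2 genes were tested by exact permutation of within-array differences over 70 assignments of arrays. The 7 genes, the 9 lists (90 of 106 genes measured) and the tests were chosen with earlier results of these data known. The text names the 7 genes, the 4 genes of lowest p in each list, members that complete a count of 5 or fewer, and the 3 nearest genes of each member past the threshold. Mdm2, Fas, Tp53inp1, Ccng1, Bax, Bbc3, Cdk1 and Ccnb1 were named after their values were seen. Promoters were matched by symbol for 6 of the 7 genes, of which Cdkn3 had 2 windows and the first was used, and each motif was searched on both strands. Alternatives were a filter to the upper 60% of probe sets, quantile normalization, centred medians, a pseudocount of 16, trended robust moderation, array weights, adjustment over gene representatives and leaving out each array. Plots used matplotlib 3.10.9 (Python 3.11.15).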

Additional observations from a re-analysis of the deposited data

Results flagged for a closer look

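Within groups of 4 arrays, the gap of 1 array to its nearest neighbour, as a ratio to the range of the group, passed the 95% critical value of Dixon's test in 11 of 148 groups of named genes and list means examined, where chance gives about 1 in 20. In 6 of them the array was miR-222 replicate 3. The mean of the G2 and mitosis list was -0.25 there, with the remaining miR-222 arrays at 0.25 to 0.30 (ratio 0.893). Ccnb2 was at 1453 intensity units, against 1794 to 1835 (0.903), Ccnb1 at 811, against 1235 to 1339 (0.838), and Klf6 at 572, against 746 to 778 (0.865). Mdm2 was at 1497, against 1427 to 1433 (0.914), and Cyb5r4 at 812, against 770.2 to 774 (0.916). None of the 7 inhibitor genes had such an array.

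In miR-222 replicate 2, Ccng1 was at 10023 intensity units, against 10368 to 10419 (0.873), the mean of the Cdkn1c neighbours was -0.06, against -0.14 to -0.13 (0.855), and that of the Cdkn2a and Cdkn2b neighbours was 0.09, against -0.06 to -0.04 (0.848). Mtap was at 589 in miR-222 replicate 4, against 526 to 536 (0.838). Ccne2 was at 633 in control replicate 3, against 516 to 528 in the other control arrays (0.890). All list means are log2 levels relative to the control mean.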

How the results depend on the processing

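No paired analysis was possible because the labels carry no replicate numbers. Under the 7 alternatives that kept all arrays, 3 inhibitor genes were higher and 2 lower, as reported, with log2 fold changes of 0.45 to 0.49 for Cdkn1a, -0.42 to -0.37 for Cdkn1b, 0.33 to 0.36 for Cdkn1c, -0.29 to -0.26 for Cdkn2b and 0.66 to 0.71 for Cdkn3. Leaving out 1 array gave 2 to 3 higher and 1 to 2 lower: Cdkn1a, Cdkn1b and Cdkn3 passed each time, and Cdkn1c and Cdkn2b were lost as given above. Cdkn2a, which did not pass, ranged from -0.11 to 0.02 with 1 array left out and was above 0 without control replicate 2 (0.023) or miR-222 replicate 1 (0.016). Cdk1, which did not pass either, ranged from -0.057 to 0.23 and was below 0 without control replicate 4 (-0.029), miR-222 replicate 2 (-0.057) or miR-222 replicate 4 (-0.014). Leaving out 1 array gave 0 to 1 pocket protein and E2F genes higher and 0 to 0 lower, 1 to 4 turnover genes lower, 1 to 2 transcription factor genes higher, 2 to 5 mitosis genes higher and 0 to 1 Cdkn2a neighbours lower. With 1 array fewer the test has less power, and the cause of each lost call was not tested. The differences between Cip/Kip genes stayed on their side of the threshold under the 10 alternatives run. For the 2 differences with Cdkn1b, leaving out an array could not change this, as the groups of each gene did not overlap. Averaging several probe sets of a gene gave no value, as each inhibitor gene had 1. The 4 arrays a group and the dim signal of Cdkn2a limit what the test can show.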
